A study of Mus musculus with 14 samples.

Results

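RNA-seq of brain tissue was used to ask which transcripts differed between APP/PS1 mice that had received the mitochondrial complex I inhibitor CP2 and APP/PS1 mice that had received vehicle. The comparison took 10 of the 14 libraries of the series, 5 from CP2-treated mice (numbered 21 to 25) and 5 from vehicle-treated mice (16 to 20), and all 43346 genes of the count table. The mice were chosen by treatment and genotype as labelled, not by any measured value. All 10 mice were females of the strain labelled C57BL/6;SJL-Tg with the genotype label APP/PS1 +/+, carrying mutant human APP and presenilin 1 transgenes, and all were 23 months old. CP2 was given at 25 mg/kg/day in drinking water with 0.1% PEG from 9 months of age, that is for 14 months, and vehicle mice drank water with 0.1% PEG. The vehicle group is called non-treated in its label and vehicle-treated in the treatment notes. The tissue was a frozen brain cross-section with hippocampus and cortex, so each library mixed neurons, glia and vessels, and a lower level of a cell-type transcript cannot be told apart from fewer cells of that type. Mice were housed 5 to a cage, cage membership was not given in the sources used here, and cage and treatment therefore could not be separated. The promoters that drive the transgenes were not given in the sources used here either.

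CP2 is a tricyclic pyrone that partially inhibits mitochondrial complex I, the NADH dehydrogenase at the entry of the respiratory chain. Complex I is assembled from nuclear-encoded and mitochondrially encoded subunits, passes electrons from NADH to ubiquinone and is a site where superoxide can form. In brains with amyloid plaques, microglia and astrocytes take on reactive states, and part of that response is the interferon program, in which STAT transcription factors switch on antiviral enzymes, interferon-inducible GTPases and the antigen-presentation machinery. Metallothioneins bind zinc and copper and are induced by metals, glucocorticoids and oxidative stress.

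Library totals ranged from 78563022 to 106235625 counts, and after scaling to the library total with TMM factors (CPM) a single count was worth 0.00941 to 0.0127 CPM. Of 16407 genes that passed the filter on low counts, 473 were higher and 601 lower with CP2 at an unadjusted p under 0.05 in edgeR's quasi-likelihood test, which is 2.88% and 3.66% of the genes tested; such a gene is referred to as called. Where nothing differs, a share of 0.05 of tests falls under this unadjusted threshold, both directions together. Only 1 gene passed an adjusted p under 0.05 (0.00609% of those tested), and the words higher and lower are used for all others. Groups did not overlap, with every CP2 mouse above or every CP2 mouse below every vehicle mouse, in 89 genes upward (0.542%) and 107 downward (0.652%). Differences were small: the median log2 fold change was 0.21 among genes called higher and -0.21 among genes called lower, and 0 and 8 of these exceeded 1 log2 unit. Other fits left out 1 mouse, changed the tool, filter or scaling, or added the summed thalamus or striatum markers, both (the region covariates) or the ribosomal RNA share as a covariate. Vehicle mouse 16 stood apart from the other libraries, with a summed level of 12 striatum markers of 2815 CPM against 229.6 to 333 in the other vehicle mice and 254 to 429 in CP2 mice. The summed level of 24 thalamus markers was 652, 1160.1, 952, 922 and 1086 CPM in vehicle mice 16 to 20 and 1087, 1263, 1485, 1262 and 1219 in CP2 mice 21 to 25, and the share of counts on ribosomal RNA genes was 2.40% to 5.51% and 4.49% to 7.40%.

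**Figure D1:**
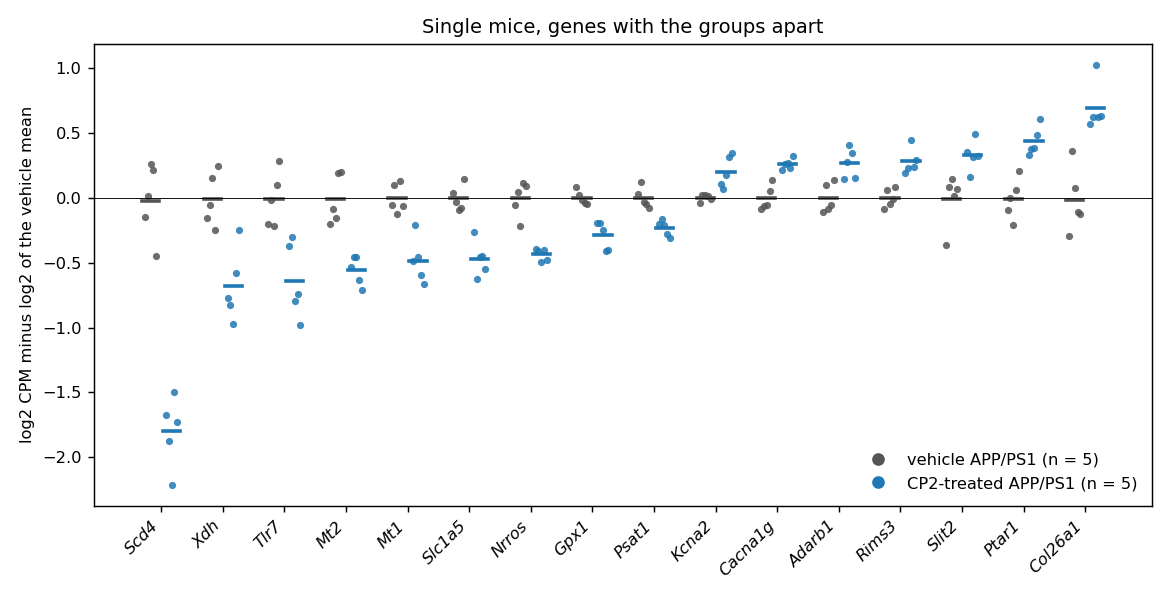
Level of 16 genes in each mouse as log2 CPM minus the log2 of the vehicle mean (vertical axis), with vehicle mice in grey, CP2 mice in blue and bars at the mean of the 5 points. In all 16 genes the groups did not overlap, and Scd4 shows the widest gap, with all 5 CP2 mice between 0.679 and 1.12 CPM.

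The gene that passed the adjusted test was Scd4 (ENSMUSG00000050195, chr19:44333092-44346743), which encodes a stearoyl-CoA desaturase, an enzyme that puts the first double bond into saturated fatty acids. Scd4 read 2.84, 3.18, 3.76, 3.64 and 2.31 CPM in vehicle mice 16 to 20 and 0.985, 0.857, 0.679, 1.115 and 0.947 CPM in CP2 mice 21 to 25. The highest CP2 mouse was below the lowest vehicle mouse. The CP2 mean lay under the filter level of 1 CPM, so Scd4 entered the test through the vehicle group, where it was higher. In the fit without the filter its adjusted p was 0.00429. With at least 10 counts required in every mouse it was 0.0076. Scd4 fell by 1.77 ± 0.17 on the log2 scale (mean ± SE; adjusted p = 0.00684), from 3.14 ± 0.594 and 0.917 ± 0.162 CPM (mean ± SD) with n = 5 each, and the exact permutation p was 0.00794, the smallest that 5 against 5 mice allow. The adjusted p was 0.0537 when CP2 mouse 22 was left out and 0.334 with the thalamus marker level as a covariate, while the log2 fold change stayed between -1.86 and -1.68 over the fits with 1 mouse left out. Expressed per length, Scd4 was the least abundant of the 4 Scd genes, at 0.693 RPKM (vehicle mean) and 0.200 RPKM (CP2 mean).

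The other genes of this cluster on chromosome 19 did not share the difference. Scd2, the main desaturase of brain, averaged 280 RPKM in vehicle and 299 RPKM in CP2 mice (log2 fold change 0.11 ± 0.09, adjusted p = 0.81). Scd1, the main liver form, read 178, 224, 302, 292 and 246 CPM in vehicle and 295, 287, 310.2, 270.5 and 299 CPM in CP2 mice, and the groups overlapped (log2 fold change 0.24 ± 0.12, adjusted p = 0.749); it was called higher without mouse 18 or 19. Scd3 averaged 2.51 and 1.94 RPKM (log2 fold change -0.37 ± 0.23, adjusted p = 0.768). Of all 101-base stretches of the Scd4 transcripts, 0.436% also occur in another desaturase of the family, so that few reads of this length can be shared between them. Among 20 desaturases and elongases, Fads6 was called higher (0.23), Degs1, which desaturates ceramide precursors, was called lower (-0.13), and the other 17 were not called. With Scd4, 10% of the list was called lower and 5% higher, against 3.66% and 2.88% of all genes tested.

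Both Mt1 and Mt2, which encode metal-binding metallothioneins, were called lower. Mt2 (ENSMUSG00000031762, chr8:94172618-94173567) read 109, 118, 113, 143 and 144 CPM in vehicle and 86.8, 91.45, 91.5, 80.8 and 76.7 CPM in CP2 mice. Mt1 (ENSMUSG00000031765, chr8:94179089-94180325) read 222.5, 247, 211.5, 252 and 221 CPM in vehicle and 164, 200, 168, 152.5 and 145 CPM in CP2 mice. Both metallothioneins were lower in every CP2 mouse than in every vehicle mouse, with log2 fold changes of -0.55 ± 0.09 (adjusted p = 0.511) and -0.47 ± 0.09 (adjusted p = 0.529). Mt3, the form made mostly in brain, overlapped between groups, with 227, 249, 225, 255 and 266 CPM in vehicle and 226, 239, 212, 223 and 183 in CP2 mice (-0.17 ± 0.07), and its call was lost without mouse 17, 19, 20, 23 or 25. The 3 metallothionein transcripts share no 101-base stretch, so their counts are separate measurements. The remaining 7 tested members of the list of 10 metallothionein and iron genes were not called (30% lower against 3.66% of all genes tested). The list gave 6 calls instead of 3 without mouse 16.

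Core metal-response letters (TGCACNC or TGCGCNC, either strand, within 250 bases before the RefSeq start) occur in both promoters, which are shown because both genes were lower in every CP2 mouse.
Mt1: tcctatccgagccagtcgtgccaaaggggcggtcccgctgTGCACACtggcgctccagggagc
Mt2: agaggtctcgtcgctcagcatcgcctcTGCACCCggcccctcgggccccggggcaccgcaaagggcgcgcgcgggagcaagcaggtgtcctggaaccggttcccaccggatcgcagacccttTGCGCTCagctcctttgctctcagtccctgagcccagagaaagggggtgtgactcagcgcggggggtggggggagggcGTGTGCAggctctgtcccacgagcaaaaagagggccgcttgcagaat
The capitals mark the matches, 1 in Mt1 at chr8:94179026-94179088 and 3 in Mt2 at chr8:94172368-94172614 (both GRCm38.p6, plus strand). The letters are common: 21.4% of all 32841 promoters of the table and 34.2% of those of tested genes hold at least 1 match, and 5.18% of all promoters hold 2 or more.

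Among antioxidant enzymes, Gpx1 (ENSMUSG00000063856, chr9:108338903-108340343), the glutathione peroxidase of the cytosol and mitochondria, was 63.6, 61.3, 59.4, 58.7 and 58.2 CPM in vehicle and 52.7, 52.6, 50.8, 45.3 and 45.5 CPM in CP2 mice. All 5 CP2 values lay under all 5 vehicle values (-0.29 ± 0.05, adjusted p = 0.529). In all, 8 of the 40 antioxidant and redox enzymes were called lower and 0 higher, 20% against the 3.66% of all genes tested, with a median log2 fold change over the 40 of -0.08. The others were Prdx6 (-0.30), which reduces phospholipid peroxides, Msrb1 (-0.24), Nxn (-0.22), glutathione reductase Gsr (-0.17), Prdx2 (-0.12), superoxide dismutase Sod1 (-0.15) and G6pdx (-0.17), the first enzyme of the pentose phosphate pathway. G6pdx read 39.6, 45.1, 47.7, 46.7 and 43.3 CPM in vehicle and 41.5, 41.4, 40.4, 37.45 and 36.8 CPM in CP2 mice, so that vehicle mouse 16 lay within the CP2 range. The list gave 4 without mouse 24, 5 without mouse 17 and 14 without mouse 16, and 5 with the ribosomal RNA covariate.

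Transporters and enzymes of amino acid, purine and lipid metabolism followed. Before them in order of p came Ankrd13a, a ubiquitin-binding protein that acts on receptor internalization, at 54.55, 56.5, 53.3, 53.6 and 54.1 CPM in vehicle and 49, 46.2, 46.4, 44.7 and 48.6 CPM in CP2 mice, without overlap (-0.21 ± 0.04, adjusted p = 0.529). Slc1a5, a neutral amino acid transporter that carries glutamine, averaged 4.15 ± 0.286 and 3.01 ± 0.286 CPM (mean ± SD) in vehicle and CP2 mice, without overlap (-0.46 ± 0.09, adjusted p = 0.529). Psat1, an enzyme of serine synthesis, read 127, 135.5, 122, 120.5 and 118 CPM in vehicle and 108, 111, 108, 103 and 101 CPM in CP2 mice (-0.23 ± 0.05, adjusted p = 0.54). Gpd1, the cytosolic glycerol-3-phosphate dehydrogenase, read 86.7, 85.1, 81.15, 80.7 and 86.03 and 76.3, 69.1, 69.1, 73.65 and 76.6 CPM (-0.20 ± 0.04), and its groups were also apart. Xdh, the xanthine dehydrogenase that makes urate and can release superoxide, read 14.9, 16.02, 18.5, 14.03 and 19.75 and 9.73, 9.38, 8.49, 11.1 and 13.99 CPM (-0.66 ± 0.14). The groups in Xdh were separated by the narrow gap between vehicle mouse 19 and CP2 mouse 25. Plin4, a lipid droplet coat protein, had the largest difference of these genes (-1.39 ± 0.34) and the widest vehicle spread, 29.2, 48.2, 11.2, 14.6 and 29.75 CPM against 9.48, 10.2, 9.275, 8.75 and 12.99 CPM with CP2, with the groups overlapping. Pnpla2, the lipase that opens droplet triglycerides, was -0.22. The 6 genes from Slc1a5 to Pnpla2 stayed called in each of the 21 other fits, and none passed the adjusted test in the main one.

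**Figure D2:**
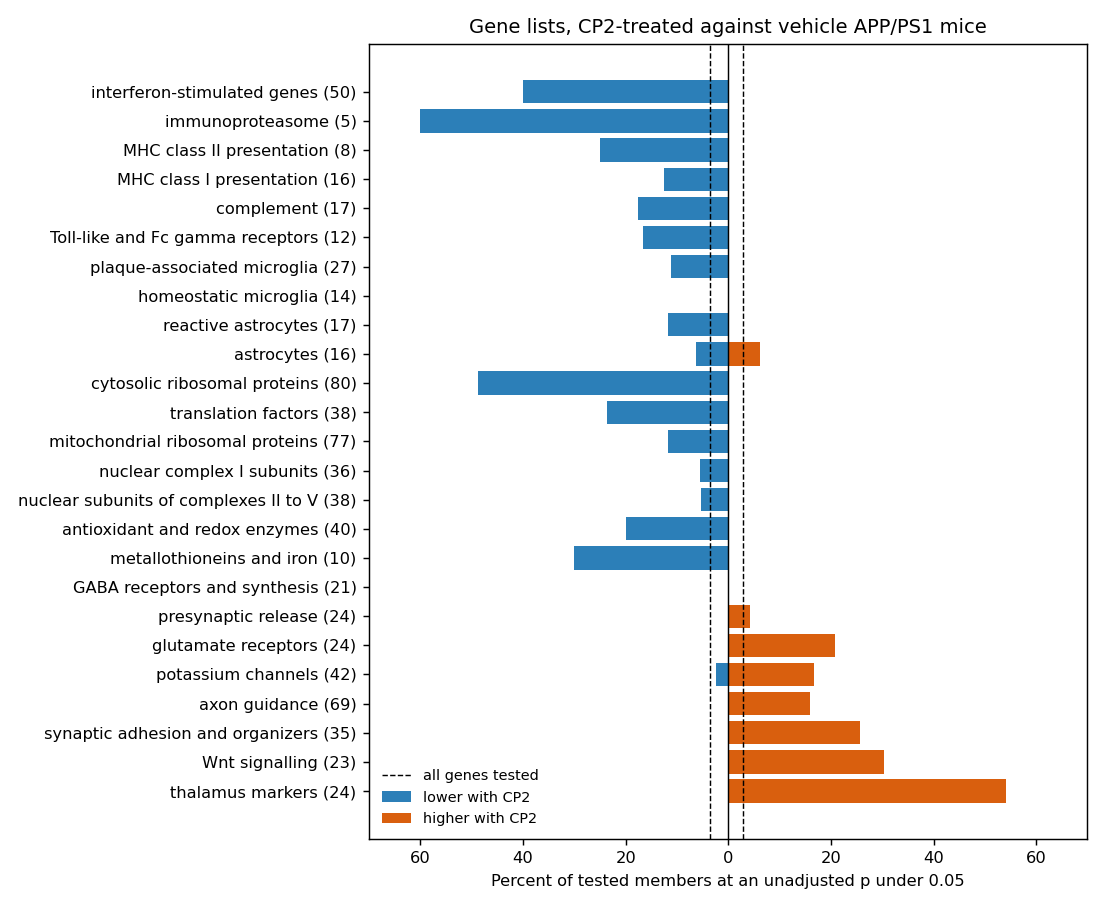
Share of the tested members of 25 gene lists (number in parentheses) at an unadjusted p under 0.05, lower with CP2 to the left in blue and higher to the right in orange, with dashed lines at the share over all genes tested (3.66% lower, 2.88% higher). Immune, ribosomal and redox lists extend to the left, and channel, adhesion, guidance and thalamus marker lists to the right.

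Interferon-stimulated genes were lower with CP2. Of 58 listed genes 50 passed the filter, all 50 had a negative log2 fold change with a median of -0.40 (over all genes tested the median was -0.01), and 20 were called lower, 40% against 3.66%, and 0 higher. Their summed level was 367, 587, 753.5, 575 and 552.5 CPM in vehicle mice 16 to 20 and 446, 469, 394.5, 430.5 and 485.5 CPM in CP2 mice 21 to 25. Vehicle mouse 16, the library with the striatum markers, had the lowest sum of all 10, and the other 4 vehicle mice lay above all CP2 mice. The number called was 7 without mouse 18, 10 without mouse 23, 13 without mouse 24 and 43 without mouse 16. It was 33 with the thalamus covariate, 42 with limma-voom and 43 with the striatum covariate, and 0 members were called higher in any of the 21 other fits.

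The member with the smallest p, and the only one whose groups did not overlap, was Herc6, a ubiquitin-like ligase that attaches ISG15 to proteins, at 15.9, 19.2, 17.85, 17.96 and 18.2 CPM in vehicle and 15.6, 15.5, 13.4, 15.5 and 14.8 CPM in CP2 mice (-0.25 ± 0.06, adjusted p = 0.744). Of all genes tested, 0.652% had groups apart downward. Iigp1, an interferon-inducible GTPase that attacks pathogen vacuoles, had the largest difference (-1.19 ± 0.39), with 2.03, 4.37, 12.5, 4.84 and 5.73 CPM in vehicle and 2.57, 2.81, 2.665, 1.72 and 3.24 CPM in CP2 mice. In Iigp1 mouse 18 was the highest, and vehicle mouse 16 lay among the CP2 mice. The same GTPase family held Igtp (-0.72), Irgm2 (-0.66) and Irgm1 (-0.49); the annotated Irgm2 interval overlaps Igtp, and reads in the overlap were counted for both. Irgm1 read 12.03, 20.9, 28.8, 18.9 and 17.4 CPM in vehicle and 14.2, 14.3, 13.55, 13.01 and 14.96 CPM in CP2 mice. The antiviral oligoadenylate synthetase family gave Oasl2 (-0.69, not called without mouse 17, 18 or 23) and Oas1a (-0.57). Isg15, the ubiquitin-like protein of this response, was 1.51, 5.03, 6.01, 4.32 and 3.45 CPM in vehicle and 2.701, 2.09, 2.43, 2.68 and 3.104 CPM in CP2 mice (-0.65 ± 0.29), and lost its call without mouse 17, 18, 19, 20, 21, 22, 23 or 24. The remaining members called were Xaf1 (-0.42), Ifi27l2a (-0.62), Ifi44 (-0.94), Slfn8 (-0.53), Usp18 (-0.58), Nlrc5 (-0.65), the activator of MHC class I genes, Gbp6 (-0.56), Ifi35 (-0.36), the ISG15-conjugating enzymes Uba7 (-0.30) and Ube2l6 (-0.40), and the E3 ligases Trim25 (-0.23) and Trim30a (-0.40).

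An interferon-response letter pattern, GAAA followed by any 2 bases and a second GAAA, on either strand within 250 bases before the RefSeq start, was present in 17 of the 37 interferon-stimulated genes that have a window in the promoter table (45.9%), against 3.07% of the 11124 tested genes with a window and 2.98% of all 32841 promoters. Among the 15 members called lower that have a window, 7 hold it, namely Oas1a, Slfn8, Isg15, Irgm1, Irgm2, Igtp and Trim30a. The windows below are those of called genes and of Ifit1, the antiviral RNA-binding protein (-0.56, not called), from RefSeq on GRCm38.p6, with the matches in capitals.
Isg15: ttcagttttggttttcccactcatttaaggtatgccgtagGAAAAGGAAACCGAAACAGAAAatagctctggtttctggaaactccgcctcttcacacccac
Ifit1: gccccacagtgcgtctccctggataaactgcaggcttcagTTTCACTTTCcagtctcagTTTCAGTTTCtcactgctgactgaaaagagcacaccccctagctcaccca
Irgm1: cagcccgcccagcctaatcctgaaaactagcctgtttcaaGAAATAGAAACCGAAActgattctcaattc
Igtp: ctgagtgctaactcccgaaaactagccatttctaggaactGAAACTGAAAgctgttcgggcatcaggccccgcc
Irgm2: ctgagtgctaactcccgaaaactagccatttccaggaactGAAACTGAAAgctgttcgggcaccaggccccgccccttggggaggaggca
Trim30a: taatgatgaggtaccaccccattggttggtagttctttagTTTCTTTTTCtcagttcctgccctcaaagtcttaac
They lie at chr4:156200835-156200936 (minus strand), chr19:34640745-34640853 (plus strand), chr11:48871421-48871490 (minus strand), chr11:58199482-58199555 (plus strand), chr11:58214873-58214962 (plus strand) and chr7:104465194-104465269 (minus strand). Isg15 has 3 overlapping matches, and Igtp and Irgm2 agree in 72 of the 74 bases shown for Igtp. The pattern was chosen with the gene list known, and a match describes letters only.

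Antigen presentation genes called were all lower. B2m, the light chain of MHC class I, read 124, 217, 258, 236 and 182 CPM in vehicle and 148, 162.5, 144, 139.5 and 150 CPM in CP2 mice (-0.45 ± 0.16, adjusted p = 0.744), with vehicle mouse 16 below every CP2 mouse and the other 4 vehicle mice above every CP2 mouse. Of 16 MHC class I presentation genes 2 were called lower (12.5% against 3.66%), B2m and H2-T22 (-0.43), and 15 had a negative log2 fold change; the list gave 9 calls without mouse 16, 6 without mouse 25 and 1 without mouse 17, 20, 23 or 24. This number was 1 with the ribosomal RNA covariate, the thalamus covariate or both region covariates and 8 with limma-voom or the striatum covariate. In the immunoproteasome, the interferon-induced form of the proteasome that cuts peptides for MHC class I, 3 of 5 genes were called lower (60% against 3.66%), Psmb8 (-0.45 ± 0.15), Psmb10 (-0.22 ± 0.06) and Psme1 (-0.13). Psmb10 was 30.6, 34.1, 34.1, 35.8 and 33.3 CPM in vehicle and 29.8, 30.6, 29.6, 26.6 and 27.5 CPM in CP2 mice, with only CP2 mouse 22 reaching the lowest vehicle mouse. Groups overlapped in every immunoproteasome gene. The immunoproteasome count was 2 without mouse 18, 20, 23 or 24 and 4 without mouse 16. It was also 4 with DESeq2, limma-voom, the ribosomal RNA covariate, the thalamus covariate or the striatum covariate. For MHC class II, which presents to CD4 T cells, 2 of 8 tested genes were called lower (25% against 3.66%), H2-Eb1 (-0.99 ± 0.32) and the peptide loader H2-DMa (-0.33 ± 0.12), and the count was 4 without mouse 20 and 5 without mouse 19. This number was 0 with the ribosomal RNA covariate, 1 with both region covariates and 4 without the filter. H2-Eb1 read 4.03, 6.799, 7.77, 3.21 and 2.52 CPM in vehicle and 3.48, 2.49, 2.46, 1.45 and 2.43 CPM in CP2 mice, with overlap between groups.

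Several genes of microglia and of immune receptors were lower. Nrros (ENSMUSG00000052384, chr16:32142785-32165594), a microglial protein that holds latent TGF-beta at the cell surface and limits oxidant production, was 9.501, 10.2, 8.525, 10.7 and 10.6 CPM in vehicle and 7.55, 7.45, 7.04, 7.47 and 7.08 CPM in CP2 mice, without overlap (-0.43 ± 0.07, adjusted p = 0.511). Tlr7, the endosomal receptor for single-stranded RNA, was 12.45, 14.1, 12.3, 15.3 and 17.4 and 11.1, 11.65, 8.27, 8.56 and 7.255 CPM, also without overlap (-0.61 ± 0.14, adjusted p = 0.744). C5ar1, the receptor for complement fragment C5a, was -0.59 and stayed called in every fit. C1qa (-0.46) was not called without mouse 19, 24 or 25, and Fcgr1, the high-affinity IgG receptor (-0.32), was not called without mouse 17, 18, 19, 20, 23, 24 or 25. Of 17 complement genes 3 were called lower (17.6% against 3.66%), C5ar1, C1qa and Masp1 (-0.19), and the count was 1 without mouse 19, 24 or 25 and 6 without mouse 16. This number was 5 with DESeq2, the ribosomal RNA covariate, the thalamus covariate or both region covariates and 6 with limma-voom or the striatum covariate. Of 12 Toll-like and Fc gamma receptors Tlr7 and Fcgr1 were called lower (16.7%), with 1 without mouse 17, 19, 20, 23 or 24 and 4 without mouse 16 or 22. This number was 1 with both region covariates, 4 with the striatum covariate and 5 with limma-voom. In C1qa the CP2 mice read 110.3, 126, 102.5, 87.9 and 77.1 CPM and the vehicle mice 88.55, 135.5, 141, 188 and 141 CPM.

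Of 27 genes of plaque-associated microglia 3 were called lower (11.1%), Lgals3 (-0.66), the cysteine protease Ctsb (-0.18) and Lpl (-0.18), with 26 of the 27 log2 fold changes negative and a median of -0.21; the count was 0 without mouse 19, 1 without mouse 25, 5 without mouse 21, 9 without mouse 22 and 12 without mouse 16. This number was 5 with both region covariates, 6 with limma-voom and 8 with the ribosomal RNA covariate, the thalamus covariate or the striatum covariate. Of 14 homeostatic microglia genes 0 were called by edgeR or DESeq2, with a median of -0.16 and all 14 negative; the number called lower was 1 without mouse 22 and 2 without mouse 18 or 21. This number was 4 with the ribosomal RNA covariate. Of 17 reactive astrocyte genes 2 were called lower (11.8% against 3.66% of all genes tested). They were Serpina3n (-0.63 ± 0.28), an acute-phase protease inhibitor, and Osmr (-0.52 ± 0.22), the oncostatin M receptor. Of 16 general astrocyte markers 1 was called higher and 1 lower, 6.25% each against 2.88% and 3.66% (median 0.01, of either sign over the other fits). Serpina3n read 59.04, 132, 153, 188 and 163 CPM in vehicle and 124, 110, 73.4, 75.03 and 65.2 CPM in CP2 mice. In Serpina3n all CP2 mice were under every vehicle mouse but mouse 16, which was the lowest of the 10, and in Osmr CP2 mice 23 to 25 were under every vehicle mouse while CP2 mice 21 and 22 lay within the vehicle range. The reactive astrocyte count was 0 without mouse 17, 18, 19, 23, 24 or 25, 1 without mouse 20, 4 without mouse 21 and 8 without mouse 16. This number was 1 with the ribosomal RNA covariate, the thalamus covariate or both region covariates, 4 with limma-voom and 8 with the striatum covariate. Gfap, the intermediate filament that marks reactive astrocytes, was not called (-0.22 ± 0.24, adjusted p = 0.851).

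**Figure D3:**
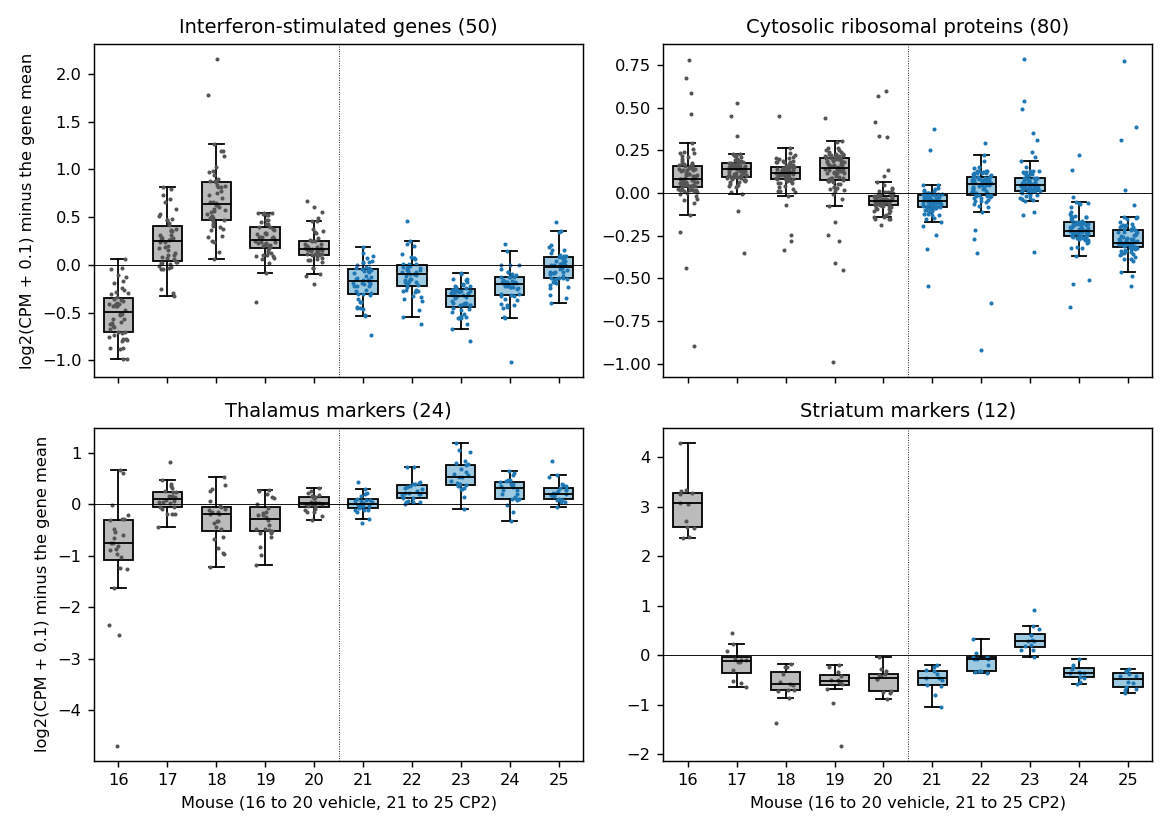
Distribution of 4 gene lists in each mouse, as log2(CPM + 0.1) of every tested member minus its mean over the 10 mice (vertical axis); boxes show quartiles and points single genes, vehicle in grey and CP2 in blue. Interferon-stimulated genes are lowest in vehicle mouse 16, whose striatum markers sum to 2815 CPM, and ribosomal protein genes are lowest in CP2 mice 24 and 25.

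Of all lists, that of the cytosolic ribosomal proteins had the most members called lower. Of its 80 genes, all tested, 39 were called lower (48.8% against 3.66%) and 0 higher, and 78 had a negative log2 fold change, with a median of -0.18. Their summed level was 9352, 9536, 9403, 9559 and 8536 CPM in vehicle mice 16 to 20 and 8392, 8908, 9199, 7583 and 7277 CPM in CP2 mice 21 to 25. CP2 mice 24 and 25 were the lowest, CP2 mice 22 and 23 lay between vehicle mouse 20 and the other vehicle mice, and the groups overlapped. Rps13, a small-subunit protein, read 42.2, 44.7, 42.3, 40.2 and 40.99 CPM in vehicle and 38.85, 37.04, 38.2, 33.9 and 35.6 CPM in CP2 mice (-0.20 ± 0.05, adjusted p = 0.744). Rps13 and Rpl8 (-0.16 ± 0.05) were the 2 of the 80 whose groups did not overlap, against 0.652% downward of all genes tested. The largest differences were in Rpl35a (-0.43) and Rpl26 (-0.31). The number called was 15 without mouse 24, 19 without mouse 25, 22 without mouse 18 and 23 without mouse 17 or 19. In the other direction, it was 52 without mouse 23, 53 without mouse 20 and 56 without mouse 22. This number was 15 with the thalamus covariate, 19 with the ribosomal RNA covariate and 25 with both region covariates.

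Translation factors had the same direction with 9 of 38 called lower (23.7% against 3.66%), 0 higher and a median of -0.07. Eef1a1, the elongation factor that brings aminoacyl-tRNA to the ribosome, was 1767, 1835, 1606, 1659 and 1673 CPM in vehicle and 1532, 1557, 1532, 1449 and 1404 CPM in CP2 mice, without overlap (-0.19 ± 0.05, adjusted p = 0.744). Its partner Eef1b2, which reloads Eef1a1 with GTP, was -0.17 ± 0.05, also without overlap, and Eif3e, an initiation factor subunit, was -0.16 ± 0.05. The translation factor count was 4 without mouse 24, 5 without mouse 17, 18, 21 or 25 and 11 without mouse 16. This number was 3 with the ribosomal RNA covariate, 11 with the thalamus covariate, 12 with both region covariates and 13 with limma-voom.

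Complex I, the target of CP2, and the rest of the mitochondrial machinery were covered by several lists. Of 77 mitochondrial ribosomal protein genes 9 were called lower (11.7% against 3.66%) and 0 higher (median -0.06), with 4 without mouse 25 and 5 without mouse 24. This number was 2 with the ribosomal RNA covariate, 5 with the thalamus covariate and 13 without mouse 20. Mrps9 was 26.7, 26.6, 24.5, 25.4 and 25.4 CPM in vehicle and 23.7, 23.5, 23.6, 23.3 and 24.1 CPM in CP2 mice (-0.12 ± 0.04), without overlap. Of 36 nuclear-encoded complex I subunits 2 were called lower (5.56% against 3.66%), Ndufb10 (-0.14 ± 0.06) and Ndufa12 (-0.17 ± 0.07), 34 were negative and the median was -0.10. The summed level of the 36 subunits was 2417, 2589.7, 2546, 2438 and 2236 CPM in vehicle and 2301, 2410.4, 2486, 2220.4 and 2101 CPM in CP2 mice, and the groups overlapped. Ndufb10 was not called without mouse 16, 17, 21, 24 or 25, and Ndufa12 was not called without mouse 17, 18, 21, 24 or 25. The complex I count was 0 without mouse 17, 21 or 25, 1 without mouse 16, 18 or 24, 4 without mouse 19 or 22, 7 without mouse 23 and 10 without mouse 20. This number was 0 with the ribosomal RNA covariate, 1 with the exonic-length offset and 4 with both region covariates or upper-quartile factors. For complexes II to V 2 of 38 subunits were called lower (5.26% against 3.66%), Sdhb of complex II (-0.14 ± 0.05) and Atp5g2 of the ATP synthase (-0.19 ± 0.07), with a median of -0.08. The count was 6 without mouse 23, 7 without mouse 22 and 10 without mouse 20. This number was 0 with the ribosomal RNA covariate and 4 with the thalamus covariate or both region covariates. The 37 mitochondrially encoded genes had 0 counts in the table and were not measured. None of 19 genes of AMPK signalling and mitochondrial biogenesis was called in edgeR or DESeq2 (median 0.00), and 1 was called with vehicle mouse 16, 18 or 20 left out.

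A list of 28 genes for glucose transporters, kinases, oxidative stress and synaptic proteins had 1 called gene, Sod1 (3.57% lower against 3.66%). Sod1 was lower (-0.15 ± 0.06) and was not called without mouse 17, 24 or 25. Bdnf, a neurotrophin, was 0.20 ± 0.11 and Sirt3, a mitochondrial deacetylase, was 50.4 and 50.3 CPM in vehicle and CP2 mice. Of 15 genes of amyloid precursor processing 1 was called lower (6.67% against 3.66% of all genes tested), Psenen, a subunit of gamma-secretase. Psenen read 22.45, 23.9, 24.6, 21.4 and 21.1 CPM in vehicle and 20.9, 20.9, 20.7, 18.6 and 17.4 CPM in CP2 mice, without overlap (-0.20 ± 0.07, adjusted p = 0.744). Mouse App was 0.04 ± 0.04 (adjusted p = 0.843), and reads of the human transgenes that align to the mouse genes are part of such values.

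Genes higher with CP2 with the smallest p-values included channels and synaptic proteins. Cacna1g (ENSMUSG00000020866, chr11:94408391-94474198), a T-type calcium channel that drives burst firing in thalamic neurons, was 99.2, 100.4, 101, 109 and 116 CPM in vehicle and 122, 126, 127, 123 and 132 CPM in CP2 mice, without overlap (0.26 ± 0.05, adjusted p = 0.529). Rims3, a protein of the presynaptic release site, was 224, 248, 230.3, 237 and 253 and 273, 279, 325, 281 and 292 CPM (0.28 ± 0.06, adjusted p = 0.529). Ptar1, a prenyltransferase subunit, was 6.57, 7.003, 6.05, 7.3 and 8.06 and 8.81, 9.104, 9.14, 9.81 and 10.6 CPM (0.44 ± 0.09, adjusted p = 0.529). All CP2 mice exceeded all vehicle mice in the 3 genes. Col26a1, a collagen, was 1.86, 2.93, 2.397, 2.11 and 2.085 and 3.37, 3.495, 4.62, 3.51 and 3.515 CPM (0.70 ± 0.14), with CP2 mouse 23 the highest. Adarb1, which edits adenosines in glutamate receptor RNA, was 235, 270.4, 238, 244 and 278 and 280, 307, 336, 322 and 281 CPM (0.27 ± 0.07), without overlap. Rsg1, a small GTPase needed for cilia, had the largest difference upward of these genes, from 0.853 ± 0.0583 and 1.62 ± 0.498 CPM (mean ± SD) (0.93 ± 0.20). Its vehicle mean lay under the filter level of 1 CPM, so Rsg1 entered the test through the CP2 group, where it was higher and more spread. Rsg1 was not among the 46 genes called higher in every fit.

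Thalamus markers stood beside these genes. Of 24 thalamus markers 13 were called higher (54.2% against 2.88%) and 0 lower, with a median of 0.50. Groups did not overlap, all upward, in 4 of the 24, against 0.542% of all genes tested. Cacna1g is on that list, and so are Rgs16 (0.84), Gbx2 (0.77), a thalamic transcription factor, Lef1 (0.59) and Ntng1 (0.57). Ntng1, a netrin-family adhesion protein, read 20.7, 46.4, 44.7, 41.4 and 55.4 CPM in vehicle and 51.6, 56.8, 73, 68.2 and 60.4 CPM in CP2 mice, lowest in vehicle mouse 16. CP2 mouse 21 lay within the vehicle range of Ntng1, and CP2 mouse 23 was the highest. With the summed thalamus marker level as a covariate, the log2 fold change of Ntng1 became -0.0129, that of Cacna1g stayed at 0.21 and that of Rims3 at 0.17. Col26a1 (0.41), Ptar1 (0.37) and Kcna2 (0.18) also kept their calls, while Adarb1 (0.13) and Slit2 (0.16) did not. The covariate sums the same 24 markers, so the values of Ntng1 and Cacna1g are part of it and their fits adjust them for themselves. It also differs between the groups, and the part of the thalamus marker level in these differences was not tested.

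Of 69 tested axon guidance genes 11 were called higher (15.9% against 2.88%) and 0 lower, with 53 positive log2 fold changes and a median of 0.10. Slit2, a secreted ligand of Robo receptors, was 27.55, 37.4, 39.1, 35.75 and 36.97 CPM in vehicle and 45.1, 39.45, 44.02, 49.6 and 44.1 CPM in CP2 mice, without overlap (0.33 ± 0.09, adjusted p = 0.744). Sema5a, a semaphorin, was 57.8, 67.03, 74.98, 79.3 and 76.5 and 87.4, 86.4, 88.01, 79.75 and 94.5 CPM (0.29 ± 0.08). Dscam, a homophilic adhesion receptor of axons and dendrites, was 56.4, 63.01, 70.7, 66.4 and 71.1 and 76.5, 72.75, 78.3, 75.3 and 79.6 CPM (0.22 ± 0.06). Both Sema5a and Dscam were higher in every CP2 mouse than in every vehicle mouse. Unc5d (0.32), a netrin receptor, Sema6a (0.26), Plxna3 (0.17) and L1cam (0.17) were called with overlapping groups. The number called higher was 3 with the ribosomal RNA covariate and 4 with the thalamus covariate. It was 14 with the striatum covariate, 15 with both region covariates or DESeq2, and 8 to 16 with 1 mouse left out.

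Synaptic adhesion genes gave 9 of 35 called higher (25.7% against 2.88%) and 0 lower. Ptprd, a receptor phosphatase that organizes presynaptic terminals, was 221, 223, 239, 241 and 251 CPM in vehicle and 256, 255, 257, 274 and 285 CPM in CP2 mice, without overlap (0.18 ± 0.05). Slitrk6 (0.64) is also a thalamus marker. The adhesion count was 4 without mouse 24 or 25 and 5 without mouse 17 or 18. This number was 3 with the ribosomal RNA covariate, the thalamus covariate or the exonic-length offset and 4 with both region covariates.

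Several receptor and channel genes of neurons were called higher. Of 24 glutamate receptor genes 5 were called higher (20.8% against 2.88%) and 0 lower, among them Grm2 (0.23), a presynaptic metabotropic receptor. Of 42 potassium channel genes 7 were called higher (16.7%) and 1 lower, with Kcna2, a Kv1 channel of axons, at 81.9, 85.35, 85.25, 84.95 and 83.4 CPM in vehicle and 90.45, 88.15, 95.3, 104 and 107 CPM in CP2 mice (0.21 ± 0.06), Kcnk9, a leak channel (0.33 ± 0.09), and Kcnc2, a Kv3 channel (0.32), all 3 without overlap. The 5 vehicle mice of Kcna2 lay within 81.9 to 85.35 CPM. The glutamate receptor count was 1 without mouse 17, 2 without mouse 23, 24 or 25 and 3 without mouse 20 or 22. This number was 1 with the ribosomal RNA covariate, 2 with the thalamus covariate and 3 with both region covariates or the exonic-length offset. The potassium channel count was 4 without mouse 17, 19, 23 or 24. This number was 2 with the thalamus covariate and 3 with the ribosomal RNA covariate. The number of potassium channels called lower was 0 without mouse 16, 17, 20, 21, 22, 24 or 25 and 2 without mouse 18. It was 0 with DESeq2, limma-voom or the striatum covariate and 2 with both region covariates. Of 29 cholinergic, opioid and amine receptors 6 were called higher (20.7%), among them the nicotinic subunit Chrna4 (0.30), with 1 without mouse 23 or 24, 2 without mouse 19 and 3 without mouse 17 or 25. This number was 0 with the ribosomal RNA covariate, 1 with the thalamus covariate and 3 with both region covariates. The 1 called lower was the dopamine receptor Drd1a (-1.81 ± 0.77), at 112.5, 10.1, 7.395, 7.77 and 10.8 CPM in vehicle and 7.25, 8.704, 11.99, 7.58 and 6.81 CPM in CP2 mice, a value set by vehicle mouse 16 (-0.09 without it, not called). Of 21 GABA receptor and synthesis genes the main edgeR fit called 0, and the median was 0.01. DESeq2 and the fits without mouse 16 or 24 called 2 higher. With both region covariates 2 were called higher and 1 lower. The number higher was 1 with limma-voom, the thalamus covariate or the striatum covariate and without mouse 18, 20, 21 or 25.

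In Wnt signalling, which acts through beta-catenin and LEF/TCF factors, 7 of 23 genes were called higher (30.4% against 2.88%) and 0 lower, with a median of 0.19. The summed level was 988, 1062, 1064, 1073 and 1103 CPM in vehicle and 1117, 1136, 1203, 1141 and 1129 CPM in CP2 mice, so that every CP2 mouse was above every vehicle mouse. Axin2, a feedback inhibitor and direct target of the pathway, was 20.7, 20.4, 20.1, 18.8 and 19.9 CPM in vehicle and 21.1, 22.5, 22.99, 23.25 and 24.8 CPM in CP2 mice (0.20 ± 0.05, adjusted p = 0.744), without overlap and called in each of the 21 other fits. Lef1, a DNA-binding partner of beta-catenin and a thalamus marker, was 5.21, 7.09, 9.44, 9.76 and 8.78 and 9.48, 11.4, 14.1, 12.8 and 12.85 CPM (0.59 ± 0.17), overlapping in vehicle mouse 19 and CP2 mouse 21. The number called was 3 without mouse 23 or 25. This number was 1 with the thalamus covariate, 2 with the ribosomal RNA covariate and 3 with both region covariates.

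Genes called in opposite directions differed in length. Median exonic length was 5014 bases among genes called higher, 2326 bases among genes called lower and 3577 bases among all genes tested, and without the ribosomal protein genes the lower group had 2405 bases. Of genes in the shortest tertile (up to 2591 bases) 1.96% were called higher and 6.20% lower, and of those in the longest tertile 4.59% and 1.45%. Kcna2, Rims3 and Slit2 have exonic lengths of 3456, 7972 and 15079 bases, and Mt1 and Gpx1 have 540 and 1441 bases. With an offset fitted on exonic length in each library, 463 genes were called higher and 525 lower, the cytosolic ribosomal protein count stayed at 39, the interferon count was 22, and axon guidance gave 8.

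**Figure D4:**
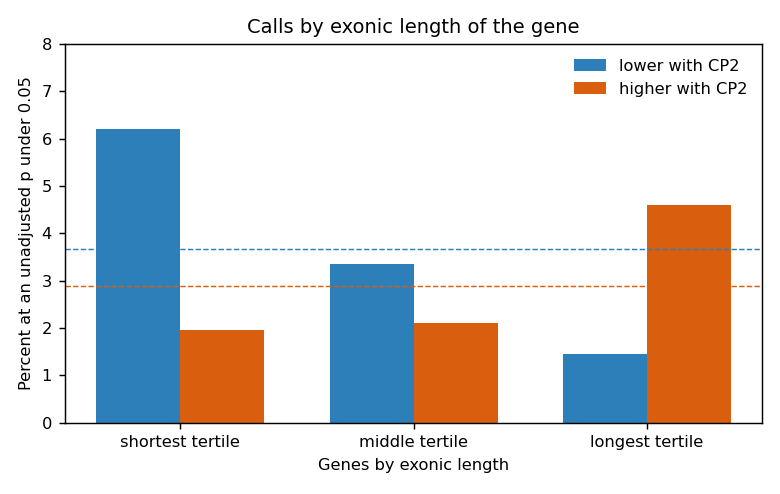
Percent of tested genes at an unadjusted p under 0.05 (vertical axis), lower with CP2 in blue and higher in orange, in tertiles of exonic length (horizontal axis), with dashed lines at the values over all genes. Calls downward decline from 6.20% in the shortest tertile to 1.45% in the longest, and calls upward reach 4.59% in the longest.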

How the data were processed

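RNA from brain cross-sections of 10 female mice was compared. Per the labels and the study's methods, the authors prepared TruSeq libraries, aligned paired reads to mm10 with TopHat2 and counted them per Ensembl gene with featureCounts, with reads in overlapping genes counted for each; strand settings were not given in the sources used here. The deposited counts per gene were used as they are. RPKM deposited by the authors gave levels between genes. Tests used edgeR 4.0.16 (quasi-likelihood, TMM, Benjamini-Hochberg adjustment over 16407 genes with CPM over 1 in every mouse of a group) in R 4.3.3; DESeq2 1.42.0 and limma 3.58.1 were alternatives, and 1 gene at a time was compared by a two-sided exact permutation test over 252 groupings. Covariates from region markers and ribosomal RNA, an exonic-length offset and leaving out each mouse were also tried; the length offset and the 2 region covariates together were added after the data were seen. Named genes were those passing adjustment, the 15 smallest p-values in each direction (predicted models left out), the 4 smallest of each list, every member of lists of up to 10 genes, the proteins the study measured and genes it names; Scd2, Scd3, Pnpla2, Isg15, Irgm2, Igtp, Rpl8, Gbx2, App and list members given only a log2 fold change were added after their values were seen. The comparison and gene lists were chosen with earlier results of these data known. Replicates are single mice, and all 20 pairs within groups differed beyond counting noise. On simulated counts, 61% of genes changed by 0.5 and 100% of those changed by 1 log2 unit passed adjustment, with 4.17% false calls. These counts were drawn independently for each gene from the dispersion trend of the data. They held no shift shared by many genes of a mouse, as in mouse 16, and do not give the power of the real comparison. Promoter sequences are from RefSeq (GRCm38.p6); gene positions are those of the deposited table.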

Additional observations from a re-analysis of the deposited data

Results flagged for a closer look

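Within groups of 5 mice, 210 sets of values (genes and summed lists) were examined for a mouse far from the other 4, and 8 were found; chance flags about 1 in 20 groups. Vehicle mouse 16 was far from its group in Drd1a, at 112.5 CPM against 7.395 to 10.8, in the summed striatum markers, at 2815 CPM against 229.6 to 333, and in Slit2, at 27.55 CPM against 35.75 to 39.1. CP2 mouse 23 was far above its group in Col26a1, at 4.62 CPM against 3.37 to 3.515, in Gbx2, at 4.32 CPM against 2.075 to 2.47, and in the summed Wnt signalling genes, at 1203 CPM against 1117 to 1141. Vehicle mouse 19 stood above the others in Prdx6, at 315 CPM against 255 to 272. Vehicle mouse 20 stood below the others in the summed cytosolic ribosomal proteins, at 8536 CPM against 9352 to 9559.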

How the results depend on the processing

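Counts of genes called depended on the fit. The 473 genes higher with CP2 became 768 without the filter on low counts, 315 with the ribosomal RNA share as a covariate, 851 with both region marker levels as covariates, and 278 to 702 with 1 mouse left out (fewest without mouse 25, most without mouse 16). The 601 genes lower became 1011 without the filter and 328 to 873 with 1 mouse left out (fewest without mouse 24, most without mouse 16). The 1 gene passing adjustment became 23 with DESeq2 (Scd4, Mt1, Mt2, Gpx1, Nrros, Cacna1g and Rims3 among them), 2 with the ribosomal RNA covariate (Scd4 and Mt2), 0 with the thalamus covariate, 0 with both region covariates, and 0 to 1 with 1 mouse left out. Genes whose groups did not overlap, 196 in all, numbered 250 to 501 with 1 mouse left out, the most without mouse 16, where groups of 4 and 5 overlap less easily by construction. In each of the 10 fits with 1 mouse left out 183 genes stayed called higher and 227 lower, and in all 21 other fits 46 and 100.

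Signs turned in single genes and in list medians. Ntng1 was -0.0129 with the thalamus covariate and App -0.0069 with both region covariates. Drd1a was 0.58 with the thalamus covariate. The thalamus marker median was -0.0016 with both region covariates. The striatum marker median, -1.42, was 0.22 with the ribosomal RNA covariate, 0.86 with the thalamus covariate, 0.0245 with the striatum covariate, 0.0334 with both region covariates, and -1.66 to 0.25 with 1 mouse left out, the highest without mouse 16. The immediate early gene median, 0.26, was -0.14 without mouse 25, and the astrocyte median, 0.0097, was -0.0655 with the ribosomal RNA covariate and -0.0438 without mouse 16. The AMPK and GABA medians, both near 0, also changed sign in some fits. The region covariates are sums of these same markers, so a marker list fitted with its own sum is adjusted for itself by construction. The cause of the other differences was not tested. No paired analysis was possible because the mouse numbers of the groups are not shared.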

Other observations

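Other gene groups had a few calls. All 9 genes of the Ugt1a cluster, glucuronosyltransferases that conjugate bilirubin and drugs, had a median log2 fold change of -0.47, and 2 were called lower (22.2% against 3.66%). Between 50.4% and 70.8% of the 101-base stretches of each Ugt1a transcript occur in other members, so that these are not 9 separate measurements. Ugt1a6a read 5.74, 7.68, 6.405, 8.045 and 6.99 CPM in vehicle and 6.26, 7.15, 4.13, 4.25 and 2.74 CPM in CP2 mice, with CP2 mice 21 and 22 within the vehicle range. The count was 9 without mouse 16, 21 or 22 and 0 without any other mouse. This number was 0 with the ribosomal RNA covariate, the thalamus covariate or both region covariates, 1 with upper-quartile factors, 8 with the striatum covariate and 9 with DESeq2 or limma-voom and without the filter.

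Of 14 p53 target and apoptosis genes 5 were called lower (35.7% against 3.66%), among them the death receptor Fas (-0.53 ± 0.15), Pmaip1 (-0.50) and Trp53 itself (-0.12). Fas read 2.253, 2.701, 3.795, 3.41 and 2.96 CPM in vehicle and 2.39, 2.399, 2.08, 1.79 and 1.795 CPM in CP2 mice and was called in each of the 21 other fits, while the list count was 1 without mouse 24, 2 without mouse 23 and 3 without mouse 16, 17, 18, 20, 21 or 25. This number was 1 with the thalamus covariate, 2 with both region covariates and 3 with limma-voom, the ribosomal RNA covariate or RLE factors. Of 20 immediate early genes 2 were called higher (10% against 2.88%), Nr4a2 (0.40 ± 0.16) and Nr4a3 (0.44 ± 0.18), and the count was 0 without mouse 19, 24 or 25 and 1 without mouse 17 or 18. This number was 0 with limma-voom, 1 with the thalamus covariate or both region covariates and 6 with the ribosomal RNA covariate. The median of the list was 0.26 and became -0.14 without mouse 25; for Nr4a3, CP2 mouse 25 read 55.9 CPM against 28.9 to 37.3 in the other CP2 mice. Mfsd2a, the endothelial carrier of omega-3 lysolipids, was 20.9, 20.65, 14.96, 14.4 and 17.96 CPM in vehicle and 12.6, 13.4, 14.9, 13.9 and 13.97 CPM in CP2 mice (-0.37 ± 0.11), the 1 gene called among 15 endothelial markers (6.67% lower against 3.66%). Choroid plexus markers summed to 268 to 2329 CPM in vehicle and 513 to 1387 CPM in CP2 mice, with 0 of 12 called in the main fit. Without mouse 17, 4 were called higher, and their median, 0.32 in the main fit, was 1.07. This median was -0.30 with the thalamus covariate and -0.25 with both region covariates.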
